A study of Mus musculus with 6 samples.

Results

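The 5 genes described here encode the MADS-box factors Mef2a, Mef2c and Mef2d, the MADS-box factor Srf, and Myocd (myocardin), a muscle coactivator of Srf. They were chosen by symbol, 1 row each, from 28660 identifiers, and all 5 reached the mean of 0.5 FPKM (a fragment count scaled by transcript length and by library size, averaged over both fractions) that 13917 identifiers reached. The table came from nuclei of HL-1, a beating mouse cardiomyocyte line of atrial origin that is grown in Claycomb medium with norepinephrine. One group was the chromatin pellet extract (chromatin-enriched RNA, 3 libraries) and the other was the soluble nuclear extract (soluble nuclear RNA, 3 libraries), both from the same line with no further treatment named in the labels. As background, HL-1 descends from a mouse atrial tumour driven by a viral large T antigen under the atrial natriuretic factor promoter, and both fractions share that origin. Replicates of a fraction stand pooled in 1 deposited FPKM value, so no spread between cultures can be given, no p-value was computed, and the depth is unknown.

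MEF2 proteins and SRF share a MADS domain through which they pair and bind A/T-rich DNA, MEF2 at the MEF2 site and SRF at the CArG box. In heart muscle, class IIa histone deacetylases hold MEF2 in check, and calcium-dependent kinases relieve that block. SRF is steered by its partners: myocardin and the related MRTF proteins direct it to muscle and cytoskeletal genes, and the ternary complex factors of the Elk family direct it to immediate early genes. In mice, Mef2c is needed for heart looping, Mef2a for the integrity of the postnatal heart, and Mef2d for the response of the heart to stress. Srf and Myocd serve both cardiac and smooth muscle.

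The motif that SRF binds was found in a promoter window of Srf, and the MEF2 motif in one of Mef2a. RefSeq promoter windows on GRCm38.p6, reaching from 250 bases before to 50 bases after a start, were matched for Mef2a, Mef2c, Mef2d and Srf, 4 of the 5 genes. Both strands were searched for the CArG box, which is CC and GG around 6 bases of A or T, and for the MEF2 site, a motif of 10 bases. The CArG box was held by 1.63% of 32851 windows of all genes and the MEF2 site by 3.19%. The Srf window held 2 CArG boxes, which started 82 and 62 bases before the transcript start that the window is set on. That start lies inside the RefSeq span of Srf given further on, whose 5′ end is further upstream. The 250 bases before it, at chr17:46556163-46556412 on the minus strand, are shown because both boxes lie in them, with the boxes in capitals.
Srf: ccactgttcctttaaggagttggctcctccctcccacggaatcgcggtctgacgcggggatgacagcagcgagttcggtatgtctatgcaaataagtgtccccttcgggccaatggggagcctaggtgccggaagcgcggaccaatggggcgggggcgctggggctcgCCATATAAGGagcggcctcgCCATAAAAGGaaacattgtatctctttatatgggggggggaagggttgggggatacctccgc

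The Mef2a window held 1 MEF2 site, which started 2 bases before the window's transcript start, also a position inside the RefSeq span of the gene. Neither motif was found in the windows of Mef2c (3 starts) and Mef2d (1 start). Of the SRF target genes described further on, 22 of 28 had a window, and 8 of these genes held a CArG box, against 1.81% of 27025 genes with a window. Of other genes with a window in lists described further on, a CArG box was held by 2 of 4 Srf modulators (Fhl2 and Hopx) and 0 of 5 Srf partners. The MEF2 site was held by 3 of 12 MEF2 target genes with a window, against 3.70% of all genes. It was also held by 1 of 5 MEF2 repressors (the deacetylase gene Hdac5), 1 of 5 Srf partners (Mrtfb), 1 of 4 Srf modulators (Fhl2) and 0 of 12 MEF2 activators. A match is a description of letters and not evidence of binding. The target lists were chosen as known targets, so their shares beside those of all genes are no test of the motifs. The sites are shown with 10 bases on either side, the motif in capitals, so that the letters SRF and MEF2 share can be seen side by side.
Mef2a, MEF2 site, chr7:67372841-67372870, minus strand: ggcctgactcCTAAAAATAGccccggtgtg
Jun, MEF2 site, chr4:95052236-95052265, minus strand: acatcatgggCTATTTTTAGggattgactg
Hdac5, MEF2 site, chr11:102230173-102230202, minus strand: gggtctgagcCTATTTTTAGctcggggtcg
Actc1, CArG box, chr2:114052903-114052932, minus strand: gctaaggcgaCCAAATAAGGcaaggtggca
Actg1, CArG box, chr11:120348566-120348595, minus strand: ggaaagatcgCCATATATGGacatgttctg
Vcl, CArG box, chr14:20929161-20929190, plus strand: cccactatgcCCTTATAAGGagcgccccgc
Hopx, CArG box, chr5:77115187-77115216, minus strand: taacccgagtCCAAATAAGGaagctgggga
Fhl2, CArG box, chr1:43163973-43164002, minus strand: gcgcgtgtgtCCTTATATGGtcaaatgact

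Mef2a was the most abundant of the 5 genes in both fractions and was followed by Myocd. FPKM is a level per length, so levels can be set beside each other between genes. Mef2a (ENSMUSG00000030557.12, chromosome 7) had 30.4 FPKM in the chromatin pellet and 55.7 FPKM in the soluble extract. Myocd (ENSMUSG00000020542.14, chromosome 11) had 21.9 FPKM in the pellet and 32.6 FPKM in the soluble extract. Each of these levels lay above those of the remaining 3 genes in the same fraction.

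Mef2d, Srf and Mef2c were expressed at lower and closer levels. Mef2d (ENSMUSG00000001419.13, chromosome 3) had 13.0 FPKM in the pellet and 19.4 FPKM in the soluble extract. Srf (ENSMUSG00000015605.5, chromosome 17) had 8.04 FPKM in the pellet and 25.03 FPKM in the soluble extract. Mef2c (ENSMUSG00000005583.12, chromosome 13) had 7.94 FPKM in the pellet and 18.9 FPKM in the soluble extract. The order thus differed by fraction, with Mef2d above Srf in the pellet and Srf above Mef2d in the soluble extract.

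Neighbours in these orders were close in places. The level of Mef2c was 0.988 times that of Srf in the pellet, and the level of Mef2d was 1.03 times that of Mef2c in the soluble extract. Without replicate values, neither pair can be called different. The full range from the highest to the lowest gene was 3.82-fold in the pellet and 2.95-fold in the soluble extract. The libraries are bulk RNA, so fewer cells that express a gene and less RNA per cell cannot be told apart.

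**Figure D1:**
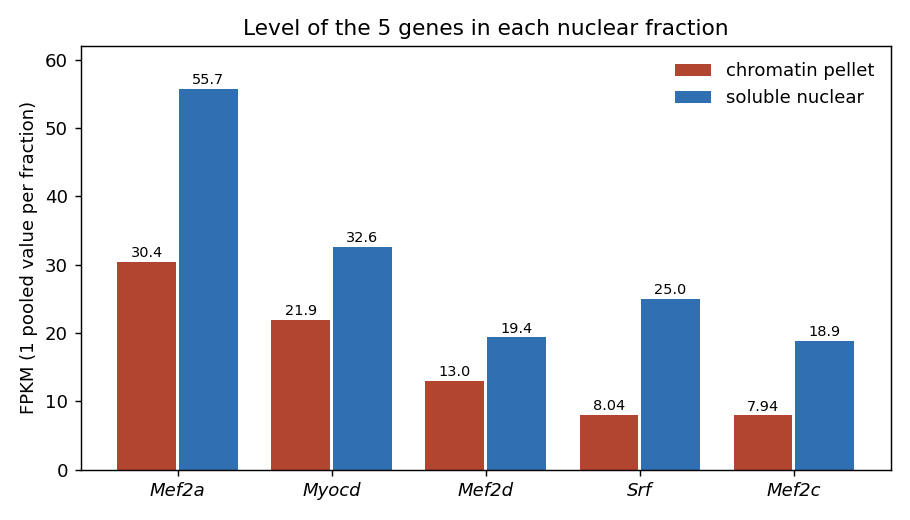
Level of the 5 genes (vertical axis, FPKM, from 0) in the chromatin pellet (left bar of each pair) and the soluble nuclear extract (right bar), each a single value pooled from 3 libraries, with no error available. Mef2a is highest in both fractions, with 30.4 FPKM in the pellet and 55.7 FPKM in the soluble extract, and all 5 genes have fewer FPKM in the pellet.

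Among the MEF2 genes, Mef2a made up the largest part of the summed level. Its share of the FPKM of Mef2a, Mef2c and Mef2d together was 59.2% in the pellet and 59.3% in the soluble extract. Mef2d contributed 25.3% in the pellet and 20.6% in the soluble extract, and Mef2c contributed 15.5% in the pellet and 20.1% in the soluble extract. The remaining family gene, Mef2b, had 0.0790 FPKM in the pellet and 0.263 FPKM in the soluble extract, below the minimum mean level.

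The levels were high against other expressed genes for Mef2a and Myocd and nearer the middle of the ranking for Srf and Mef2c. Percentiles were taken among the 11397 protein-coding genes that reached the minimum level, whose median was 4.88 FPKM in the pellet and 12.9 FPKM in the soluble extract. Mef2a stood at percentile 95.0 in the pellet and 87.0 in the soluble extract. Myocd stood at percentile 91.5 in the pellet and 76.9 in the soluble extract, and Mef2d stood at 81.1 in the pellet and 62.5 in the soluble extract. The percentiles of Mef2c (66.5 in the pellet and 61.6 in the soluble extract) and Srf (67.0 in the pellet and 69.7 in the soluble extract) were closer between the fractions.

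Myocd and Mef2d lay furthest towards chromatin, and Srf was balanced between the fractions. ERCC spike-ins, synthetic RNAs added to each fraction, gave the scale: pellet FPKM was multiplied by 3.37, the slope of soluble on pellet FPKM over 82 spike-ins, before it was divided by soluble FPKM. A fold on this spike-in scale is a difference between fractions that holds if each fraction received the same amount of spike-in. The FPKM scale leaves out that factor and lowers every log2 fold by 1.75. Over the 47 spike-ins that reached the minimum level, log2 residuals had an SD of 0.12, which is the only error the table allows and covers technical steps alone.

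Myocd had a fold of 2.27 (log2 1.18) in the pellet over the soluble extract, equal to 69.4% of its summed spike-in-scaled signal in the pellet. Mef2d had a fold of 2.26 (log2 1.18) and a pellet share of 69.3%. These 2 genes passed the 2-fold threshold, and neither does on the FPKM scale, where their log2 folds were -0.57 and -0.58.

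Mef2a had a fold of 1.84 (log2 0.88) and a pellet share of 64.8%, with a log2 fold of -0.88 on the FPKM scale. Mef2c had a fold of 1.42 (log2 0.51) and a pellet share of 58.7%, with -1.249 on the FPKM scale. Srf had a fold of 1.08 (log2 0.12) and a pellet share of 52.0%, with -1.64 on the FPKM scale. The log2 fold of Srf was within 1 SD of the spike-ins from 0 (0.971 SD), whereas Mef2c lay 4.22 SD and Mef2a 7.34 SD above 0 on this technical scale.

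On the spike-in scale, 2 of the 5 genes reached 2-fold towards the pellet and 0 towards the soluble extract, against 31.9% higher and 10.5% lower among all 13917 loci at the minimum level. Among the protein-coding genes, 24.0% were higher and 10.6% lower. On the FPKM scale, 0 of the 5 genes were higher and 2, Mef2c and Srf, were lower, against 9.66% and 61.2% of all loci and 2.25% and 68.2% of protein-coding genes. The median log2 fold of the 5 genes was 0.88 on the spike-in scale, beside 0.41 for all loci and 0.26 for protein-coding genes. On the FPKM scale the 3 medians were -0.88, -1.34 and -1.49. With 5 genes, the count on each scale is a description and was not tested.

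The genes differed from each other by more than the spike-ins scattered in most pairs, and such differences do not depend on the scale. Of 10 pairs, 7 differed in log2 fold by more than 0.34, which is 2 SD of a difference between a pair of spike-ins. The largest gap was between Myocd and Srf, with a log2 difference of 1.06, or 2.09-fold. Mef2d exceeded Srf by 1.06 and Mef2c by 0.67. Mef2a exceeded Srf by 0.76 and Mef2c by 0.37, and Mef2c exceeded Srf by 0.39. The pairs inside the band were Myocd and Mef2d (0.0042), Mef2d and Mef2a (0.30), and Myocd and Mef2a (0.30). The spread between cultures, which the table does not hold, may be wider than this band. Pairs with Srf, among them the largest gap, also rest on a locus that Srf shares with 19 other genes, described further on. The band does not cover how reads were shared out there.

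The soluble levels of Mef2c and Mef2d were nearly equal while their pellet levels were not. Mef2d had 1.63 times the pellet FPKM of Mef2c and 1.03 times its soluble FPKM. Between Mef2d and Srf the order turned round: Mef2d had 1.61 times the pellet FPKM of Srf and 0.774 times its soluble FPKM.

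Gene span went with the fold over protein-coding genes, whereas among the 5 genes only the place of Srf followed span. RefSeq spans on GRCm38.p6 were 163.1 kb for Mef2c (chromosome 13, 83504017 to 83667079) and 145.3 kb for Mef2a (chromosome 7, 67231163 to 67376456). They were 96.4 kb for Myocd (chromosome 11, 65173608 to 65269989), 30.2 kb for Mef2d (chromosome 3, 88141941 to 88172091) and 11.4 kb for Srf (chromosome 17, 46546838 to 46558267). Across 11279 protein-coding genes with a span, Spearman's rho between span and log2 fold was 0.45, a description across genes of the same pooled libraries. The median log2 fold was -0.53 in the shortest quintile of genes and 0.88 in the longest on the spike-in scale. Srf, the shortest of the 5, had the lowest fold, but Mef2c, the longest, had the next lowest.

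Mef2d had a high fold for its span, above the interquartile range of genes of like span, and the others lay inside theirs. Each gene was set beside protein-coding genes whose span was within 1.5 times its own. Mef2d stood at percentile 82.4 of 2848 such genes, whose median log2 fold was 0.31 (interquartile range -0.23 to 0.93). Myocd stood at percentile 72.0 of 1644 genes with a median of 0.73. Srf stood at percentile 56.4 of 2352 genes with a median of -0.05, and Mef2a at percentile 51.8 of 1109 genes with a median of 0.84. Mef2c stood at percentile 30.5 of 961 genes with a median of 0.90 (interquartile range 0.39 to 1.45). These percentiles compare genes within 1 table, are the same on the FPKM scale, and were not tested against replicates.

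**Figure D2:**
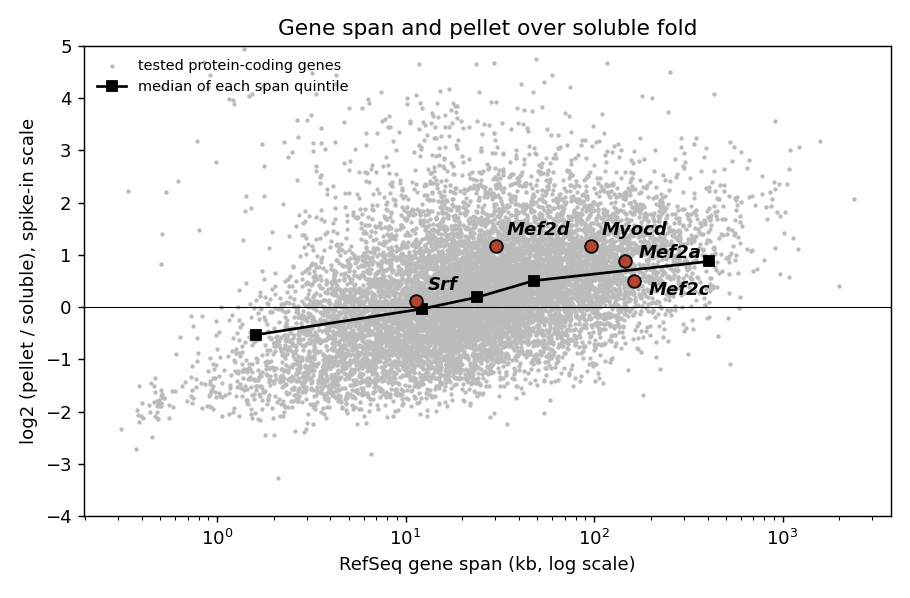
Log2 fold of pellet over soluble on the spike-in scale (vertical axis) against RefSeq gene span in kb (horizontal axis, log scale) for 11279 protein-coding genes (grey), the median of each span quintile (black squares) and the 5 genes (red). The axis runs from -4 to 5 and leaves out 11 genes. Mef2d lies above the line of medians, at 1.18 and 30.2 kb, and Mef2c lies below it, at 0.51 and 163.1 kb.

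**Figure D3:**
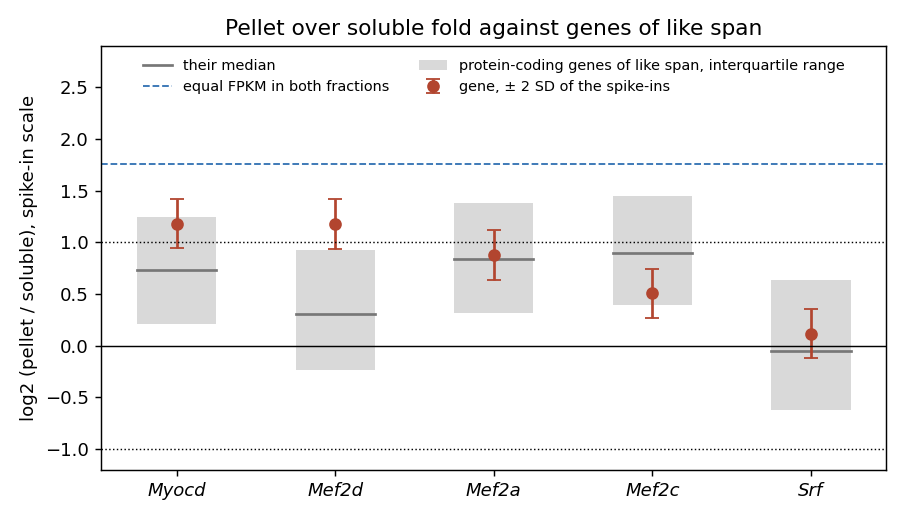
Log2 fold of each gene on the spike-in scale (red points, bars 2 SD of the spike-ins each way) with the median (grey line) and interquartile range (grey box) of protein-coding genes within 1.5 times its span. Dotted lines mark 2-fold, and the dashed line at 1.75 marks equal FPKM in both fractions, below which all 5 genes lie; Mef2d at 1.18 is the gene outside its box, which reaches 0.93.

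Several genes had almost the same pair of levels as Mef2a, Mef2d, Srf or Myocd. The 2 nearest protein-coding genes were taken by distance over log2 pellet and log2 soluble FPKM, so the likeness rests on 2 pooled values. Fastk (30.3 FPKM in the pellet and 54.7 FPKM in the soluble extract) and Mapk14 (31.4 FPKM in the pellet and 54.8 FPKM in the soluble extract) were nearest to Mef2a. Mlkl and Gprasp1 were nearest to Mef2d, Skap2 and Ap1ar to Srf, and Map1b and Tiam1 to Myocd. The largest distance among these 8 was 0.056 log2 units, between Mapk14 and Mef2a.

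The Srf values come from a crowded assembly. In the table, Srf shares 1 locus of 388966 bp on mm10 (chromosome 17, 46442448 to 46831413) with 19 other genes. The way in which reads were shared out among the genes of such a locus is not stated in the sources used here. Its RefSeq span lies 450 bp from that of Cul9, a cullin gene (3.20 FPKM in the pellet and 3.60 FPKM in the soluble extract, log2 fold 1.58), and 6184 bp from that of Ptk7 (1.08 FPKM in the pellet and 6.01 FPKM in the soluble extract, log2 fold -0.73). Of the 16 sharing genes at the minimum level, 13 had a lower log2 fold than Srf, and their median was -0.57 on the spike-in scale. Gnmt (1.68) and Cul9 passed 2-fold towards the pellet with the spike-in factor but not on the FPKM scale. Mrpl2 (-1.16), Mea1 (-1.56), 2310039H08Rik (-1.53) and Dnph1 (-1.33) were at least 2-fold lower on both.

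The other genes at the Srf locus, Pex6, Rrp36, Ptk7, Cnpy3, Gltscr1l, Klc4, Rpl7l1, Klhdc3, Cul7 and Ppp2r5d, lay within 2-fold on the spike-in scale, as did Tbcc and Ubr2 within 100 kb of that assembly. Also within 100 kb of it, Zfp318 was higher in the pellet by 2.83-fold with the spike-in factor (but below 0 on the FPKM scale, at -0.26) and Gm23037 had a log2 fold of 3.21, while Gm5093 had -1.91. These neighbours are further from the RefSeq span of Srf, with gaps of 106723 bp for Gm5093, 125918 bp for Zfp318, 332354 bp for Tbcc and 370024 bp for Ubr2. Mef2d shared its locus (chromosome 3, 88142372 to 88177785) with 1 other, the long intergenic RNA 1700113A16Rik (0.144 FPKM in the pellet and 0.417 FPKM in the soluble extract). Mef2a, Mef2c and Myocd shared theirs with none.

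The region around Myocd held several loci with positive log2 folds, and so did those around the other genes, so nothing particular to Myocd is read from them. Gm12295, a long intergenic RNA 7665 bp from the Myocd locus, had 2.14 FPKM in the pellet and 1.89 FPKM in the soluble extract, a log2 fold of 1.93 that stayed at 0.18 on the FPKM scale. The protein-coding neighbours Elac2 (0.11) and Arhgap44 (0.60) were within 2-fold on the spike-in scale. They lie in 1 assembly of 183924 bp with 1700086D15Rik. Their RefSeq spans are 171528 bp (Elac2) and 10636 bp (Arhgap44) from that of Myocd. The processed pseudogene Gm12293, 6128 bp away, had 0.801 FPKM in the pellet and 0.163 FPKM in the soluble extract (log2 fold 4.05). 1700086D15Rik, which the table types as protein-coding, lay 13600 bp away and had 0.517 FPKM in the pellet and 0.0386 FPKM in the soluble extract (log2 fold 5.50). Both had a mean below 0.5 FPKM and were named after their values were seen. Without that minimum, 49.8% of all loci were at least 2-fold higher on the spike-in scale. At 0.05 to 0.5 FPKM the 16 spike-ins had an SD of 0.37.

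A locus typed in the table as a Tbx5-dependent noncoding RNA lay close to Mef2d. It is XLOC_034507 (chromosome 3, 88138274 to 88140460), 1912 bp from the Mef2d locus, with 0.213 FPKM in the pellet and 0.0793 FPKM in the soluble extract. Its log2 fold of 3.18 was named after its value was seen, at a level below the minimum. For the other genes the nearest locus of this type was 130.9 kb (Mef2a), 862.1 kb (Srf), 5225 kb (Mef2c) and 6823 kb (Myocd) away. Their log2 folds were 4.96, 3.79, 5.21 and 2.63 in that order, so the fold of the locus near Mef2d lay within their range.

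The remaining neighbours of Mef2d and Mef2a at the minimum level gave values on either side of 0. Near Mef2d, Iqgap3 had a log2 fold of 0.74, Gpatch4 -0.14, Tsacc 0.39, a processed pseudogene at the Tsacc locus 0.81, and Apoa1bp -1.30, the one at least 2-fold lower. Near Mef2a, Adamts17 had 1.30 and Lysmd4 -0.10. Of these, Adamts17 alone was at least 2-fold higher on the spike-in scale, and it was below 0 on the FPKM scale at -0.46. No neighbour of Mef2c within 100 kb reached the minimum level. Below it, C130071C03Rik (3.67), Gm26803 (3.35) and RP23-88A13.4 (3.95) had positive log2 folds at 0.261 FPKM or less, and were named after their values were seen.

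Among genes of Srf partners, the myocardin-related factors had the highest folds. On the spike-in scale 3 of the 5 partner genes were at least 2-fold higher and 0 were lower, beside 24.0% and 10.6% of protein-coding genes, and their median log2 fold was 1.04, beside 0.26. On the FPKM scale 0 were higher and 2 lower. With 5 genes, of which Elk1 passed narrowly, nothing particular to the list is read from the count. Mrtfa (Mkl1 in the table), an actin-sensing coactivator, had 9.66 FPKM in the pellet and 11.1 FPKM in the soluble extract, a log2 fold of 1.55. Mrtfb (Mkl2 in the table) had 8.57 FPKM in the pellet and 13.1 FPKM in the soluble extract, a log2 fold of 1.14. Myocd thus had more FPKM than either relative in both fractions.

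The ternary complex factors differed in level. Elk4 had 20.3 FPKM in the pellet and 40.8 FPKM in the soluble extract (log2 fold 0.75). Elk1 had 4.72 FPKM in the pellet and 7.73 FPKM in the soluble extract (1.04), and Elk3 had 0.477 FPKM in the pellet and 1.497 FPKM in the soluble extract (0.10). Only Elk1 of these passed 2-fold on the spike-in scale, by a margin inside the spike-in SD.

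Among modulators of Srf, Scai stood apart. Scai, a repressor of MRTF-driven transcription, had 8.42 FPKM in the pellet and 3.61 FPKM in the soluble extract, a log2 fold of 2.97 that remained 1.22 on the FPKM scale. The other 4 were within 2-fold on the spike-in scale and at least 2-fold lower on the FPKM scale. Fhl2, a LIM protein that can bind Srf, had 45.8 FPKM in the pellet and 137.5 FPKM in the soluble extract (log2 fold 0.17). Hopx, a homeodomain protein that restrains Srf, had 2.30 FPKM in the pellet and 15.0 FPKM in the soluble extract (-0.95). Rhoa, the GTPase upstream of actin assembly, had 13.4 FPKM in the pellet and 82.6 FPKM in the soluble extract (-0.87), and Abra, an actin-binding activator of the MRTF route, had 0.452 FPKM in the pellet and 1.43 FPKM in the soluble extract (0.09).

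Of the genes of MEF2 repressors, 2 of 4 at the minimum level passed 2-fold upwards and 0 downwards with the spike-in factor, beside 24.0% and 10.6% of protein-coding genes. Their median log2 fold was 1.17, and 0 were higher and 1 lower on the FPKM scale. Hdac4 had 17.8 FPKM in the pellet and 19.6 FPKM in the soluble extract (log2 fold 1.61). Cabin1, a calcineurin-binding repressor, had 6.18 FPKM in the pellet and 7.88 FPKM in the soluble extract (1.40). Hdac7 had 4.96 FPKM in the pellet and 8.76 FPKM in the soluble extract (0.93), and Hdac5, at 10.9 FPKM in the pellet and 27.9 FPKM in the soluble extract, had 0.39. Hdac9 was below the minimum level at 0.197 FPKM in the pellet and 0.182 FPKM in the soluble extract.

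Of 17 genes for MEF2 activators, 4 were at least 2-fold higher and 0 lower with the spike-in factor (median 0.77), a share close to the 24.0% of protein-coding genes that were higher. With the median spike-in factor 6 were higher, and on the FPKM scale 0 were higher and 8 lower. Highest were Ep300, a histone acetyltransferase (17.6 FPKM in the pellet and 24.0 FPKM in the soluble extract, log2 fold 1.31), and Ppp3cb, a calcineurin catalytic subunit (18.2 FPKM in the pellet and 25.2 FPKM in the soluble extract, 1.28). Camk2d, the main cardiac CaM kinase II gene, had the highest level of the list with 81.7 FPKM in the pellet and 119.5 FPKM in the soluble extract (1.21). The lowest folds were those of Ppp3r1, the calcineurin regulatory subunit (-0.81), Camk1 (-0.62) and Camk2b (0.06). Ppp3cb and Ppp3r1, both calcineurin subunit genes, thus stood at opposite ends of the list.

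Among known target genes of MEF2 at the minimum level, Hrc alone lay below 0 by more than the spike-in SD on the spike-in scale. Of 14 genes, 11 reached the minimum level. With the spike-in factor 5 were at least 2-fold higher and 1 lower (median 0.44), beside 24.0% and 10.6% of protein-coding genes. On the FPKM scale, however, 0 were higher and 6 lower, beside 2.25% and 68.2% of protein-coding genes. Cmya5, the gene of myospryn, had 1.41 FPKM in the pellet and 0.852 FPKM in the soluble extract (log2 fold 2.48). Ppargc1a, a coactivator of mitochondrial genes, had 19.6 FPKM in the pellet and 15.4 FPKM in the soluble extract (2.10), and Xirp1, an intercalated disc protein gene, had 8.85 FPKM in the pellet and 9.16 FPKM in the soluble extract (1.71). Hrc, a sarcoplasmic reticulum protein gene, was lowest at 0.220 FPKM in the pellet and 2.01 FPKM in the soluble extract (-1.43), followed by Des (-0.05) and Klf2 (-0.0021). Ckm, Myl2 and Xirp2 were below the minimum level.

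Known target genes of Srf had a median near 0 on the spike-in scale. Of 28 genes, 26 were matched and 25 reached the minimum level. Of these, 2 were higher and 4 lower with the spike-in factor, at a median of -0.03, beside 24.0% and 10.6% of protein-coding genes. On the FPKM scale 1 was higher and 21 lower, beside 2.25% and 68.2% of protein-coding genes. The immediate early gene Fosb was highest, with 2.32 FPKM in the pellet and 0.451 FPKM in the soluble extract (log2 fold 4.11). Flna, an actin crosslinker gene, had 330.9 FPKM in the pellet and 449.1 FPKM in the soluble extract (1.31), and Fos had 9.64 FPKM in the pellet and 16.4 FPKM in the soluble extract (0.99). The lowest were Cnn1 (0.173 FPKM in the pellet and 1.43 FPKM in the soluble extract, -1.29), Myl9 (103.9 FPKM in the pellet and 817.5 FPKM in the soluble extract, -1.22) and Nppa (0.208 FPKM in the pellet and 1.63 FPKM in the soluble extract, -1.21), with Lmod1 below the minimum level. Of the genes whose CArG boxes are printed above, Actc1 had -0.15, Actg1 -0.36 and Vcl -0.03.

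**Figure D4:**
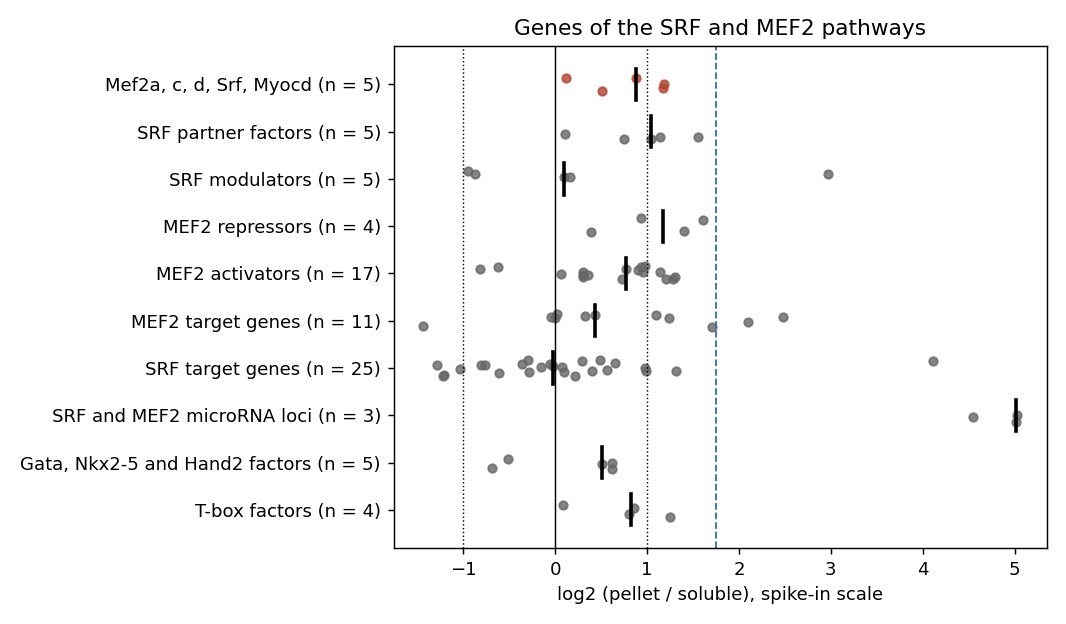
Log2 fold of pellet over soluble on the spike-in scale (horizontal axis) for each gene at the minimum level (points), by list, with the list median (black bar); dotted lines mark 2-fold and the dashed line at 1.75 marks equal FPKM, left of which a gene has fewer FPKM in the pellet. The 5 genes (red) have a median of 0.88, the Srf partner genes 1.04 and the Srf target genes -0.03, and Scai at 2.97 and Fosb at 4.11 lie right of the dashed line.

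MicroRNA loci and host transcripts under SRF and MEF2 control lay furthest towards the pellet of the lists described, whose other genes are protein-coding. Of 8 loci listed, 3 were matched, all on chromosome 18, and 3 of 3 were at least 2-fold higher on both scales. Among all 13917 loci, 31.9% were higher on the spike-in scale and 9.66% on the FPKM scale. Of these loci, 11397 are protein-coding genes, with shares of 24.0% and 2.25%, so loci of other types were higher more often than all loci together. With 3 loci, nothing particular to the list is read from the count. Mir143 and its host Mir143hg, a long intergenic RNA, are not separate examples, and the remaining host is typed as antisense. Mir143 had 95.5 FPKM in the pellet and 13.7 FPKM in the soluble extract (log2 fold 4.55), its host Mir143hg had 53.5 FPKM in the pellet and 5.54 FPKM in the soluble extract (5.02), and the miR-133a-1 host, Gm21747 in the table, had 2.47 FPKM in the pellet and 0.257 FPKM in the soluble extract (5.02). FPKM of a locus as short as Mir143 depends on a poorly determined effective length.

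Other core cardiac factors had folds that overlapped those of the 5 genes. Of the Gata, Nkx2-5 and Hand2 group, 5 of 6 were matched and 0 of 5 were past 2-fold on the spike-in scale, with a median log2 fold of 0.51. Among protein-coding genes, 24.0% were higher and 10.6% lower on that scale. On the FPKM scale 5 of the group were lower, as were 68.2% of protein-coding genes. Hand2 (23.4 FPKM in the pellet and 127.3 FPKM in the soluble extract, log2 fold -0.69) and Nkx2-5 (13.5 FPKM in the pellet and 65.0 FPKM in the soluble extract, -0.51) lay below each of the 5 genes. Gata4 (0.62) and Gata6 (0.62) lay between Mef2c and Mef2a, and Gata5 (0.51) stood beside Mef2c. Of the T-box genes, Tbx18 had 1.248, Tbx5 0.86, Tbx20 0.80 and Tbx3 0.09, and Tbx2 was below the minimum level. The lists have 4 or 5 genes at that level and the differences between them were not tested.

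Most markers of the labelled cell type were abundant. Of 11 cardiomyocyte markers, 9 were matched and all 9 reached the minimum level, with a summed 751.9 FPKM in the pellet and 3936 FPKM in the soluble extract. Lowest were the atrial peptide gene Nppa, at 0.208 FPKM in the pellet and 1.63 FPKM in the soluble extract, and Actn2, a Z-disc actinin gene, at 5.61 FPKM in the pellet and 4.67 FPKM in the soluble extract. Smooth muscle markers, which bear on Srf and Myocd, summed to 366.5 FPKM in the pellet and 2000 FPKM in the soluble extract over 7 genes, with Acta2 and Tagln the largest in the soluble extract, while Myh11, the defining smooth muscle myosin, had 0.404 FPKM in the pellet and 0.867 FPKM in the soluble extract. Of skeletal muscle markers 2 of 6 reached the minimum level, of endothelial markers 3 of 8, of fibroblast markers 3 of 6, of neuron markers 3 of 6, and of immune markers 1 of 4. The summed levels of these lists in the pellet and the soluble extract were 3.27 and 12.8 FPKM for skeletal muscle and 5.61 and 28.6 FPKM for endothelium. They were 88.4 and 346.9 FPKM for fibroblasts, nearly all of it Col3a1, 16.6 and 27.7 FPKM for neurons, and 0.684 and 0.932 FPKM for immune cells. Myog, Pax7, Rbfox3, Ptprc and Cdh5 were near 0, whereas other genes of the same lists were expressed. Map2 made up most of the neuron sum (14.9 FPKM in the pellet and 22.3 FPKM in the soluble extract). Egfl7 made up most of the endothelial sum (3.14 FPKM in the pellet and 21.5 FPKM in the soluble extract). Mylpf, at 9.25 FPKM, made up most of the skeletal muscle sum in the soluble extract. What part other cells have in the levels of the 5 genes was not tested.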

How the data were processed

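Nuclear RNA from 3 chromatin pellet and 3 soluble nuclear libraries of HL-1 cells was depleted of ribosomal RNA and made into directional libraries, per the labels' protocols. The submitters' processing notes list Cufflinks and Cuffdiff beside HISAT2, SAMtools, bedtools and the build mm10, without versions or order. One table was deposited by the authors, with 1 FPKM value per fraction and locus. Per the file headers it also holds a rescaled pellet signal, a total signal, their fold (the ratio of rescaled pellet to soluble), and the log10 of total and ratio. The rescaled signal equalled pellet FPKM times the spike-in slope within 4.7e-07 percent over tested loci.

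Of 30687 lines, repeated identifiers were dropped, leaving 28660 loci without spike-ins, none at 0 in either fraction. Summed FPKM was 832792 in the pellet and 949582 in the soluble extract. Starts in the table count from 0, so 1 was added. Folds were recomputed from FPKM without a pseudocount in pandas 2.3.3, and the calculation was tested on simulated data. A locus with a mean of 0.5 FPKM or more counted as tested and a 2-fold difference as higher or lower. Since FPKM keeps no counts and replicates are pooled, the planned limma fit was not possible and no interval is given. Spans and promoter windows came from RefSeq on GRCm38.p6, and 99.0% of tested protein-coding genes had a span. Protein sequences were not analysed here.

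Genes named are the 5 genes, Mef2b, loci within 100 kb at the minimum level, every gene of lists of up to 6, the 3 highest and 3 lowest of longer lists, and the 2 most alike genes of each. The genes most like Mef2c are not reported here. The genes and lists were chosen with earlier results of these data known. Alternatives were the FPKM scale, a median spike-in factor, pseudocounts of 0.1 and 1, other level minima, a 1.5-fold threshold and other span windows.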

Additional observations from a re-analysis of the deposited data

How the results depend on the processing

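The scale decided the direction of every fold of the 5 genes. Without the spike-in factor the log2 folds were -0.88 for Mef2a, -1.249 for Mef2c, -0.58 for Mef2d, -1.64 for Srf and -0.57 for Myocd, with 0 genes higher and 2 lower in the pellet. This follows from the constant shift between the scales, and the order of the genes is the same on both. With the median spike-in factor (3.50) or a pseudocount of 0.1 or 1, the 5 folds moved by less than the SD of the spike-ins, 2 genes were higher and 0 were lower. Other level minima gave the same counts of the 5 genes, but without a minimum 49.8% of all loci were higher, against 31.9%. At 1.5-fold 3 of the 5 genes were higher and 19.1% of all loci were lower, against 10.5%. Percentiles among genes of like span moved by under 5 points with a narrower and a wider window. Among the lists, higher Srf target genes numbered 4 with the median factor, and lower ones 2 with a pseudocount of 1 or a minimum mean of 1 FPKM, against 2 and 4. Higher MEF2 activators numbered 6 with the median factor and 10 at 1.5-fold, against 4. Lower MEF2 target genes numbered 0 with a pseudocount of 1 and 2 without a minimum, against 1, and higher T-box genes 2 without a minimum, against 1. At 1.5-fold, higher Srf target genes numbered 5 and lower ones 7, higher T-box genes 3, and genes of the Gata, Nkx2-5 and Hand2 group 2 higher and 1 lower, against 0 of each. Lower Srf modulators and lower MEF2 activators numbered 2 each at 1.5-fold, against 0. No paired analysis was possible because each fraction is deposited as 1 pooled value, and for the same reason no replicate could be left out. Unknown depth and missing replicates limit every value.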
